A study of Mus musculus with 8 samples.

Results

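The 10 genes described here encode platelet glycoproteins, their integrin partners and granule proteins: Pf4, Ppbp, Itga2b, Itgb3, Gp1ba, Gp1bb, Gp9, Gp6, Vwf and Treml1. They were taken by symbol from a deposited table of 52097 mouse genes, and all 10 were found in it. The study sequenced RNA from bone marrow stem cells sorted as CD48-CD150+LSK, the surface phenotype of haematopoietic stem cells, 3 days after mice received pIpC, an interferon inducer. All mice carried loxP-flanked Nup214 alleles and all received pIpC. The 5 control libraries came from Nup214fl/fl mice without Cre, and the 3 knockout libraries from Nup214fl/fl,Mx1-Cre mice, in which interferon switches on the recombinase and so deletes Nup214, a component of the nuclear pore. The Mx1 promoter responds to interferon in many cell types and is not restricted to stem cells, and Cre was present in the knockout group only, so its own effects cannot be told apart from those of the deletion. The labels give no ages and do not say whether each library came from 1 mouse or from pooled mice, so p-values measure the spread between libraries, which may be partly technical.

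Megakaryocytes are the large marrow cells that shed platelets, and they arise close to the stem cell in the blood hierarchy. In mice, part of the stem cell pool already transcribes platelet genes such as Vwf and Itga2b and is biased towards making platelets. On the platelet, the GPIb-IX complex catches von Willebrand factor under flow, the collagen receptor GPVI starts the activation signal, the integrin αIIbβ3 then binds fibrinogen to join platelets together, and the alpha granules release chemokines and more von Willebrand factor.

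The loci lie on 6 chromosomes in GENCODE M21 coordinates on GRCm38, the assembly that mm10 names. Pf4 (ENSMUSG00000029373, chromosome 5, 90772435 to 90773383) and Ppbp (ENSMUSG00000029372, chromosome 5, 90768518 to 90770063) are neighbours on the same strand, with 2371 bases between them. Chromosome 11 holds 3 members: Gp1ba (ENSMUSG00000050675, 70639122 to 70642036), Itga2b (ENSMUSG00000034664, 102453297 to 102470122) and Itgb3 (ENSMUSG00000020689, 104608000 to 104670476). Gp9 (ENSMUSG00000030054, 87778072 to 87779768) and Vwf (ENSMUSG00000001930, 125546774 to 125686679) are on chromosome 6. Gp6 (ENSMUSG00000078810) is on chromosome 7 from 4363965 to 4397744, Gp1bb (ENSMUSG00000050761) on chromosome 16 from 18620317 to 18622403, and Treml1 (ENSMUSG00000023993) on chromosome 17 from 48359916 to 48367176.

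Megakaryocyte promoters are known for paired GATA and ETS factor sites, so the 250 bases before the annotated start were read for 8 of the 10 members from RefSeq promoters on GRCm38.p6. For GATA factors the word AGATAA was searched on both strands, together with the variant AGATAG, the variant TGATAA and the variant TGATAG. For ETS factors the word AGGAAG was searched in the same way, with the variant CGGAAG, and no base counted for both factors in the windows shown. A GATA word was found in 3 of the 8 windows (Gp1ba, Gp1bb and Gp6), against 26.5% of 32851 promoters of the same length, and an ETS word in 5 (Pf4, Itga2b, Gp1ba, Gp1bb and Gp9), against 39.2%; 2 members held both, against 9.21%. In Pf4, Gp9 and Gp1ba an ETS word lay within the 20 bases next to the start, a window chosen after the words had been seen, against 4.8% of all promoters. Of the 8 windows, that of Gp1bb, 1 of the 2 with both words, lies wholly in an annotated exon of Sept5. In the window of Itga2b 180 bases lie in an annotated exon of Itga2b. A match is a description of letters and says nothing of binding. The windows of Pf4, whose level rose, of its neighbour Ppbp, and of Gp9 and Gp1ba, whose levels fell, are shown 5′ to 3′ on the gene's strand, with GATA and ETS words in capitals. They are chr5:90772185-90772434, chr5:90768268-90768517, chr6:87777820-87778069 and chr11:70638872-70639121, all on the plus strand, and none overlaps an annotated exon.
Pf4: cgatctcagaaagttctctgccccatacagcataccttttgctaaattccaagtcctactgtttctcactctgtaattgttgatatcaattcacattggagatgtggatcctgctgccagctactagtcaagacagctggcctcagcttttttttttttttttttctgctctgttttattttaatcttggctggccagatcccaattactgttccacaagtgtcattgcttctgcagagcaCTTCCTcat
Ppbp: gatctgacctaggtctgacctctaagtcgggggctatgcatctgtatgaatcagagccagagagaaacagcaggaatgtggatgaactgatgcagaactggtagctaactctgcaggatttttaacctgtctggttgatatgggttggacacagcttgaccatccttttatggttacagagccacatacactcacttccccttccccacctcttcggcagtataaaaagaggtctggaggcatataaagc
Gp9: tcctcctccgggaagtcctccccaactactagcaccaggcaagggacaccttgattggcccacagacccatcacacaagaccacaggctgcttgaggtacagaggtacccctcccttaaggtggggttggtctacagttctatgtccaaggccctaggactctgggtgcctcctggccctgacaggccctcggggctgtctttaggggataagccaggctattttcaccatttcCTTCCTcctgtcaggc
Gp1ba: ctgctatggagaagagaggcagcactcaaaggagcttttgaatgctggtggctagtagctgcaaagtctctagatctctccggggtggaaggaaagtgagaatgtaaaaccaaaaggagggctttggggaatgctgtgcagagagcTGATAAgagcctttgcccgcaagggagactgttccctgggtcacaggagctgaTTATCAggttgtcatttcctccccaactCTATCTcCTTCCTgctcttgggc

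Values are FPKM, fragment numbers scaled for transcript length and library size, so levels of different genes can be compared per length. Depth, estimated from the steps between low values, was 20000000 to 44200000 fragments in controls and 16100000 to 22400000 in knockouts. Nup214 itself was at 34.2 to 65.2 FPKM in controls and 9.66 to 18.2 in knockouts (limma adjusted p = 0.000289). Mitochondrial transcripts took 5.02% to 6.66% of summed FPKM in controls and 37.8% to 43.3% in knockouts, and over the 15121 genes tested the median log2 fold change was -0.81. Of those genes 59.5% were called lower and 8.91% higher in the knockout, at a limma adjusted p under 0.05. Every fold change here sets knockout against control in log2(FPKM + 1) and is to be read against that median, and values from the same fit after median-ratio rescaling, which brings the median to -0.03, are given for the members tested. In bulk RNA, fewer cells of a type and less RNA per cell cannot be told apart.

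Of the 10 members, 7 were called lower, 1 (Pf4) higher, 1 (Ppbp) did not pass and 1 (Gp6) was too low to be tested. Since 59.5% of all genes were called lower, a majority of lower calls is also the rule among genes at large. Gp1ba and Treml1 reached 1 FPKM in controls only and so entered the test through the group where they were high. Gp9, Gp1bb and Ppbp reached 1 FPKM in 1 knockout library each, and Itgb3 and Vwf in 2. The filter needs 3 libraries, so these members too passed it only through the controls. The median difference over all 10 members was -1.09, against -0.81 for all genes tested. The groups did not overlap in 5 members that were lower and 1 that was higher, against 54.5% and 7.89% of all genes tested. After median-ratio rescaling 3 members (Gp9, Itga2b and Treml1) remained lower and Pf4 higher, where 17.1% of all genes were lower and 18.7% higher. The same 4 calls held when libraries were scaled to their total without mitochondrial transcripts, where 22.6% of genes were lower and 15.5% higher. With quantile normalization Gp1ba was called lower as well, where 20.4% of genes were lower and 16.7% higher.

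**Figure D1:**
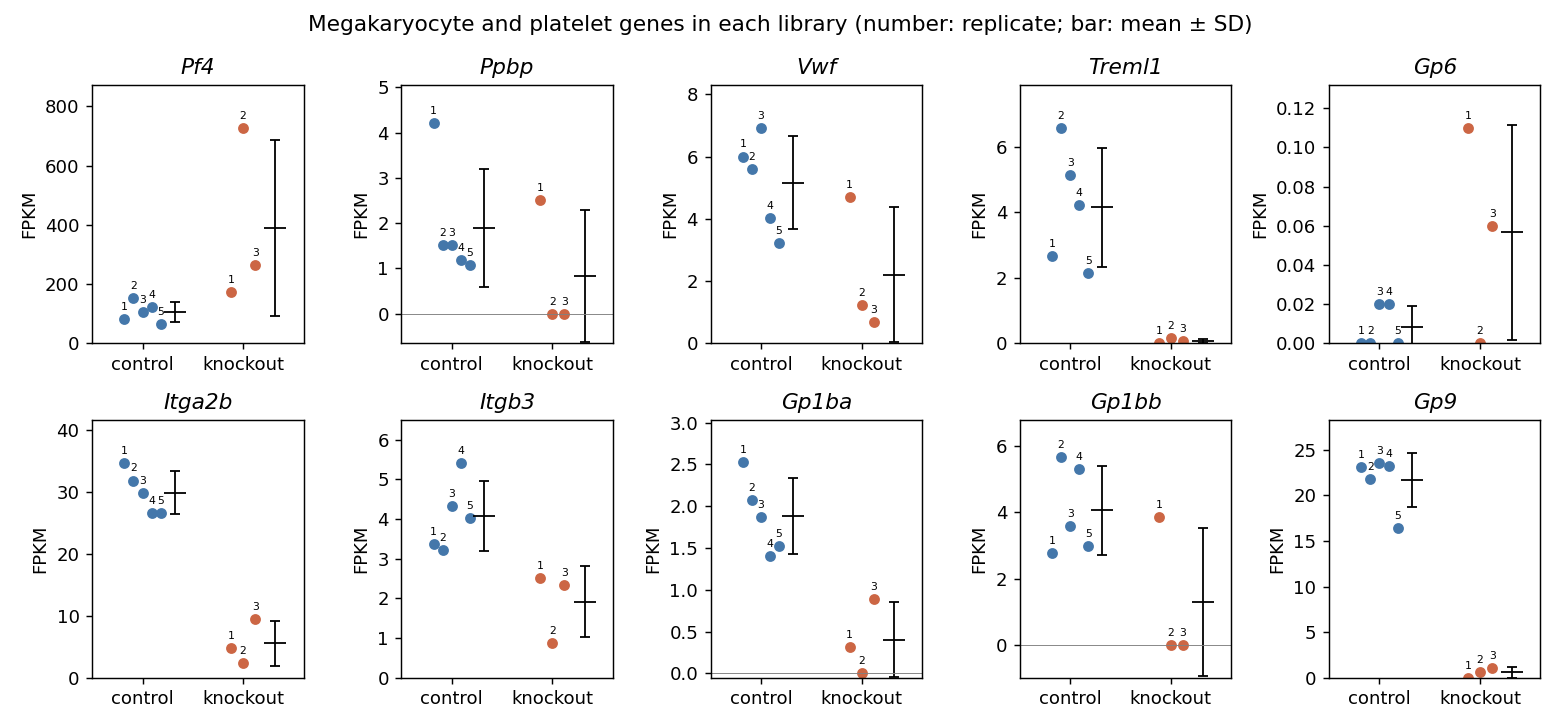
FPKM of each of the 10 genes in the 5 control libraries (blue) and 3 knockout libraries (orange), on a linear axis for each gene; numbers are replicates and bars are the mean ± SD. Pf4 was higher in every knockout library than in any control, and Itga2b, Itgb3, Gp1ba, Gp9 and Treml1 were lower in every knockout library than in any control.

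Pf4, platelet factor 4, is a chemokine stored in alpha granules and is also transcribed by some mouse macrophages. It was the most abundant member in both groups. Pf4 stood at 81.2, 152, 106, 121 and 63.8 FPKM across control replicates 1 to 5, against 172, 727 and 263 across knockout replicates 1 to 3. Every knockout library was above every control, and knockout replicate 2 was far above the other two. Group means were 105 ± 34.5 FPKM over the 5 controls and 388 ± 298 over the 3 knockouts (SD), with a log2 fold change of 1.67 ± 0.45 (standard error; limma adjusted p = 0.00939), and 2.62 ± 0.44 after median-ratio rescaling. Without knockout replicate 2 the knockout mean was 218, and the call held without any 1 of the 8 libraries (adjusted p 0.00341 to 0.0207). By rank, which does not depend on scaling, Pf4 stood between 760 and 1817 among the 15121 genes tested in controls and between 79 and 320 in knockouts. Beside it, 12 macrophage markers summed to 378 to 494 FPKM in controls and to 1795, 7316 and 3874 FPKM for the knockout libraries in the same order, and their part in the level of Pf4 was not tested. The sums of endothelial and adipocyte markers, given below, ranked the 3 knockout libraries as Pf4 did, and their part was not tested either. An order shared by only 3 libraries is readily met by chance.

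Ppbp, the neighbouring gene, encodes pro-platelet basic protein, from which the neutrophil-attracting chemokine CXCL7 is cut. Ppbp stood at 4.21, 1.51, 1.52, 1.19 and 1.07 FPKM across control replicates 1 to 5. It was 2.51 in knockout replicate 1 and was listed at 0 in knockout replicates 2 and 3, where a count of 0 allows up to 0.156 and 0.152 FPKM at the estimated depth, for counting error only. The groups overlapped, and the difference did not pass (log2 fold change -0.84 ± 0.46, standard error; limma adjusted p = 0.13), nor did it after median-ratio rescaling (-0.47, adjusted p = 0.53). Without knockout replicate 1 it was -1.44 and passed (adjusted p = 0.00777). Of 5 other CXC chemokine genes 1 could be tested. Cxcl2, a neutrophil attractant, was at 0.42 to 4.01 FPKM in controls and 1.84 to 3.23 in knockouts (adjusted p = 0.506). Cxcl1, Cxcl3, Cxcl5 and Cxcl15 were too low to be tested, and the highest value of any of them was 2.62 FPKM, of Cxcl1 in knockout replicate 1. Cxcl15, a chemokine of lung epithelium in mice, was at 0 to 0.30 FPKM in controls and 0.34 to 1.53 in knockouts, with no overlap (exact two-sided permutation p = 0.0179).

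Vwf encodes von Willebrand factor, made by megakaryocytes and endothelium and, in mice, a mark of platelet-biased stem cells. Vwf stood at 6, 5.61, 6.92, 4.03 and 3.23 FPKM across control replicates 1 to 5, against 4.70, 1.23 and 0.67 across knockout replicates 1 to 3. Knockout replicate 1 lay within the control range and the other two below it. The log2 fold change was -1.12 ± 0.39 (standard error; limma adjusted p = 0.0264). This call was weak: it ended without control replicate 1, 2 or 3 (adjusted p = 0.0509, 0.0511 and 0.0564), without knockout replicate 2 or 3 (0.089 and 0.119) and after median-ratio rescaling (-0.44, adjusted p = 0.463). Without knockout replicate 1 the knockout mean of 2.20 became 0.95.

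Treml1 encodes TLT-1, a receptor held in the alpha granule membrane and brought to the surface on activation. Treml1 stood at 2.66, 6.60, 5.14, 4.24 and 2.14 FPKM across control replicates 1 to 5, against 0, 0.13 and 0.04 across knockout replicates 1 to 3. It was almost at 0 throughout the knockout, and its knockout mean of 0.0567 was 0.02 without replicate 2. The log2 fold change was -2.21 ± 0.30 (standard error; limma adjusted p = 0.000161), and -1.89 after median-ratio rescaling (adjusted p = 0.000957).

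The 3 genes of the GPIb-IX complex were called lower as deposited, and Gp9 also after each rescaling. Gp9 encodes the small subunit that the complex needs to reach the cell surface. Gp9 stood at 23.2, 21.8, 23.6, 23.2 and 16.5 FPKM across control replicates 1 to 5, an estimated 258 to 672 fragments. In knockout replicates 1 to 3 it was 0, 0.60 and 1.10, an estimated 0, 8.84 and 16.8 fragments, and the 0 allows up to 0.284 FPKM. The groups lay far apart. Group means were 21.65 ± 2.98 FPKM over the 5 controls and 0.567 ± 0.551 over the 3 knockouts (SD), with a log2 fold change of -3.91 ± 0.25 (standard error; limma adjusted p = 4.6e-06) and -3.36 after median-ratio rescaling. Without knockout replicate 3 the knockout mean was 0.3.

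Gp1ba encodes the subunit that binds von Willebrand factor. Gp1ba stood at 2.53, 2.08, 1.87, 1.40 and 1.52 FPKM across control replicates 1 to 5, against 0.32, 0 and 0.89 across knockout replicates 1 to 3. The groups did not overlap, at low levels. The log2 fold change was -1.07 ± 0.25 (standard error; limma adjusted p = 0.00381), and -0.68 after median-ratio rescaling (adjusted p = 0.0925). Without knockout replicate 3 the knockout mean of 0.403 became 0.16.

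Gp1bb encodes the subunit linked to it by disulphide bonds. Gp1bb stood at 2.77, 5.66, 3.58, 5.29 and 2.98 FPKM across control replicates 1 to 5, against 3.86, 0 and 0 across knockout replicates 1 to 3. The groups overlapped: knockout replicate 1 was within the control range and the other two were listed at 0. The log2 fold change was -1.54 ± 0.50 (standard error; limma adjusted p = 0.0206), which ended without knockout replicate 2 or 3 (0.0935 and 0.0953) and after median-ratio rescaling (-1.07, adjusted p = 0.188). Of its 2087 exonic bases, 1902 are shared on the same strand with Sept5, a septin gene, so its reads are uncertain. Sept5 was at 0.18 to 0.58 FPKM in controls and 0 to 0.76 in knockouts.

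The integrin chains moved unequally. Itga2b encodes αIIb, also called CD41, the chain that pairs only with β3 and that marks the megakaryocyte lineage and part of the stem cells. Itga2b stood at 34.7, 31.8, 29.8, 26.6 and 26.6 FPKM across control replicates 1 to 5, against 4.82, 2.39 and 9.53 across knockout replicates 1 to 3. All knockout libraries were well below all controls. Group means were 29.9 ± 3.50 FPKM over the 5 controls and 5.58 ± 3.63 over the 3 knockouts (SD; 3.6 without replicate 3), with a log2 fold change of -2.38 ± 0.31 (standard error; limma adjusted p = 0.000116) and -1.52 after median-ratio rescaling (adjusted p = 0.0052).

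Itgb3 encodes β3, which also pairs with αV in other cells, macrophages and endothelium among them. Itgb3 stood at 3.38, 3.22, 4.33, 5.42 and 4.02 FPKM across control replicates 1 to 5, against 2.52, 0.88 and 2.33 across knockout replicates 1 to 3. The groups did not overlap, but by a narrow margin. The log2 fold change was -0.84 ± 0.26 (standard error; limma adjusted p = 0.016), close to the -0.81 of all genes. It was -0.15 after median-ratio rescaling (adjusted p = 0.704), and the call ended without knockout replicate 2 (adjusted p = 0.0515).

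Gp6 encodes GPVI, the collagen receptor of mature megakaryocytes and platelets. It was listed at 0 in control replicates 1, 2 and 5 and at 0.02 FPKM in control replicates 3 and 4. In knockout replicates 1 to 3 it was at 0.11, 0 and 0.06 FPKM. No library reached 1 FPKM, the groups overlapped, and an exact two-sided permutation test gave p = 0.107. Low levels were also seen in 2 other genes of late megakaryocytes. Tubb1, the platelet β-tubulin, was at 0.38 to 1.34 FPKM in controls and 0 to 0.70 in knockouts. Mpig6b, an inhibitory platelet receptor, was at 0 to 0.17 and 0.26 to 0.70. Other platelet receptor genes stood above these 2 in controls, with Gp5 at 3.92 to 6.31 FPKM, P2rx1 at 11.74 to 15.2 and Selp at 17.95 to 20.53. These genes were named after their values had been seen, and neither Tubb1 nor Mpig6b reached the level needed for the test. Exact two-sided permutation gave p = 0.125 for Tubb1, whose groups overlapped, and p = 0.0179 for Mpig6b, whose knockout libraries were all above the controls.

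**Figure D2:**
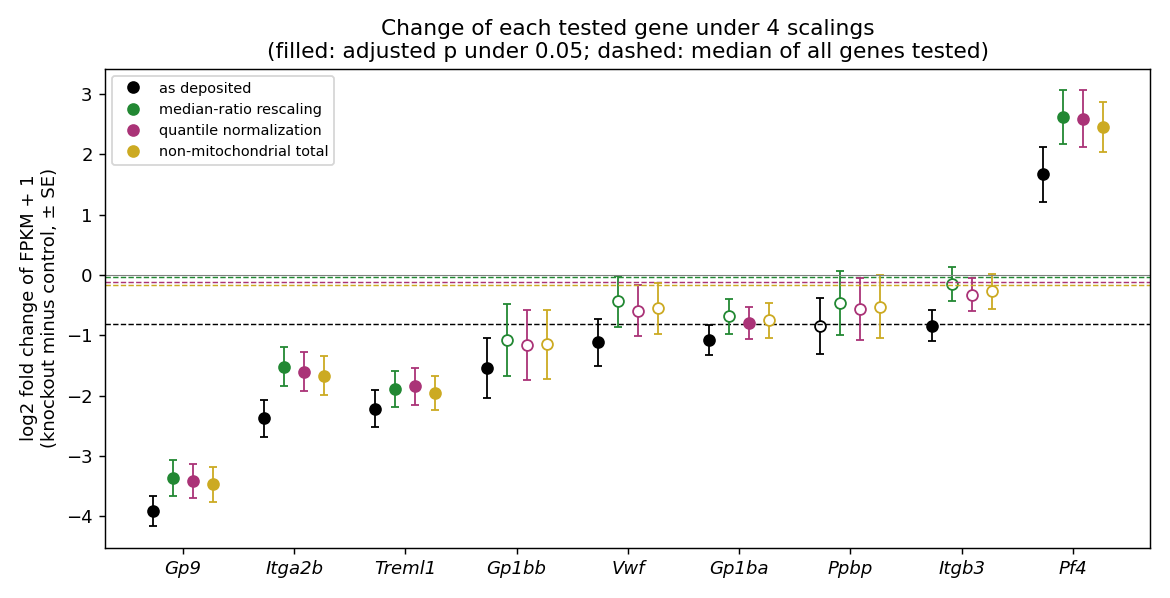
Log2 fold change of FPKM + 1 (knockout minus control, ± SE) of the 9 members tested, under 4 scalings of the libraries; filled points passed an adjusted p of 0.05 and dashed lines are the median of all genes tested. Gp9, Itga2b and Treml1 are filled below 0 and Pf4 above 0 under every scaling, while Itgb3 moves from -0.84 to -0.15.

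The order of the levels in controls was Pf4, Itga2b, Gp9, Vwf, Treml1, Itgb3, Gp1bb, Ppbp, Gp1ba and Gp6. The ranges of Pf4, Itga2b and Gp9 did not overlap with each other or with Vwf. From Vwf to Gp1ba, each neighbour overlapped the next, so that their order is not fixed by these libraries. In knockouts Pf4 and Itga2b were still first and second, and Gp9 had dropped from the third place to the seventh. Below Pf4, every neighbour in the knockout order overlapped the next. The 9 members other than Pf4 summed to 58.0 to 79.4 FPKM in controls and to 18.8, 5.23 and 14.6 in knockout replicates 1 to 3. Knockout replicate 2, highest for Pf4, was thus the lowest for this sum. The single members did not all follow it: Gp9 and Treml1 were lowest in knockout replicate 1 and Vwf in knockout replicate 3.

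Ratios of 2 members within a library do not depend on how the library was scaled, apart from the pseudocount of 1, and 4 were computed. The log2 ratio of Itgb3 over Itga2b averaged -2.62 ± 0.38 over the 5 controls and -1.08 ± 0.51 over the 3 knockouts (SD). All knockout libraries lay above all controls (two-sided exact permutation p = 0.0179, which is the lowest that 56 splits allow; 0.0357 adjusted over the 4 ratios), so Itga2b fell more than Itgb3. The log2 ratio of Gp9 over Gp1bb went from 2.19 ± 0.36 (SD, n = 5) to -0.18 ± 1.83 (SD, n = 3), again with no overlap (exact permutation p = 0.0179; adjusted p = 0.0357). That ratio rests on low values in the knockout. In knockout replicates 2 and 3 Gp1bb was listed at 0 and Gp9 was at 0.60 and 1.10 FPKM. Their log2 ratios of 0.68 and 1.07 are thus set by Gp9 and the pseudocount, and the lack of overlap depends on the pseudocount of 1. The reads of Gp1bb are also uncertain, because of the bases shared with Sept5. With a pseudocount of 0.1 the difference was -2.07 and its adjusted exact permutation p = 0.429, against 1.45 and 0.0714 for Itgb3 over Itga2b. Neither ratio passed with any 1 of the 8 libraries left out (adjusted exact permutation p 0.0571 to 0.0952), when the lowest p possible before adjustment is 0.0286 without a control and 0.0476 without a knockout. The log2 ratio of Pf4 over Ppbp was 5.22 ± 0.79 in controls and 7.73 ± 1.96 in knockouts, and the groups overlapped (exact permutation p = 0.0536; adjusted p = 0.0714). Its difference of 2.51 was 4.25 with a pseudocount of 0.1, 3.56 without knockout replicate 1 and 1.62 without knockout replicate 2. The ratio of Vwf over Itga2b was -2.36 ± 0.27 and -1.10 ± 1.38, with knockout replicate 3 in the control range at -2.66 (exact permutation p = 0.0893; adjusted p = 0.0893). Its difference of 1.26 was 0.73 without knockout replicate 1 and 2.04 without knockout replicate 3.

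**Figure D3:**
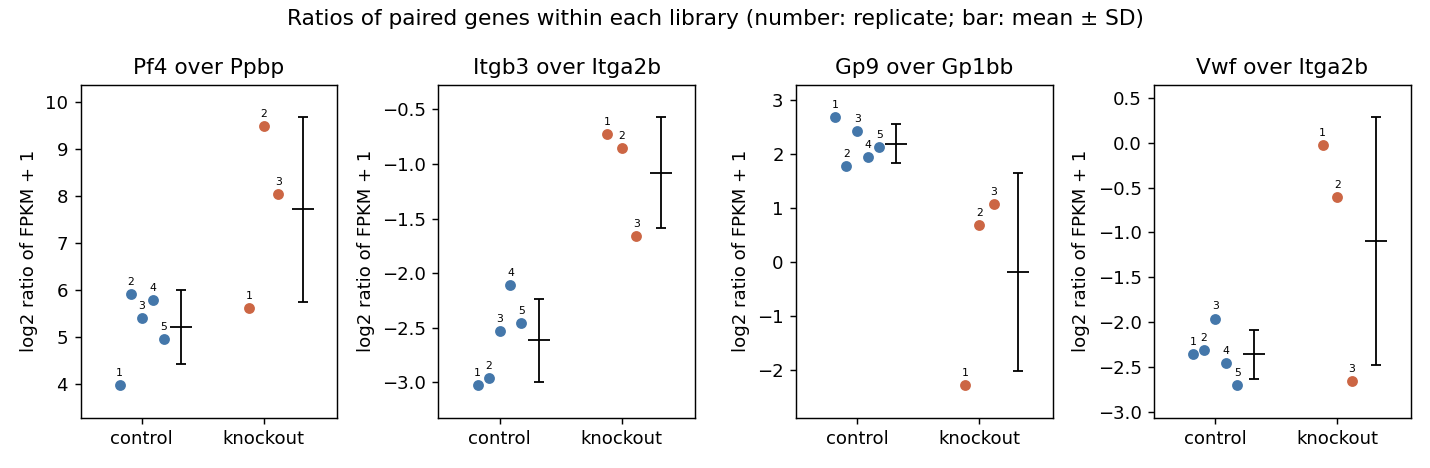
Log2 ratio of FPKM + 1 of 2 members within each of the 5 control (blue) and 3 knockout (orange) libraries; numbers are replicates and bars the mean ± SD. The knockout libraries lie apart from the controls for Itgb3 over Itga2b and for Gp9 over Gp1bb, and overlap them for Pf4 over Ppbp and Vwf over Itga2b. For Gp9 over Gp1bb the place of knockout replicates 2 and 3, with Gp1bb listed at 0, depends on the pseudocount of 1.

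The transcription factors that build the megakaryocyte programme were lower as deposited, with Fli1 and Rbm15 turning in sign after median-ratio rescaling. Of 15 such genes 15 were called lower, where 59.5% of all genes were, and their median was -1.82 against -0.81. Of these, Tal1 and Zfpm1 reached 1 FPKM in controls only and so entered the test through the group where they were high. After median-ratio rescaling 10 were lower, where 17.1% of all genes were, Fli1 was at 0.05, and Rbm15, which encodes an RNA-binding regulator of megakaryocyte growth, turned from -0.40 to 0.49 and was called higher. Lyl1, a basic helix-loop-helix partner of GATA factors, went from 161 ± 25.9 to 18.6 ± 4.13 FPKM (log2 fold change -3.05 ± 0.18, standard error; limma adjusted p = 3.67e-06; -2.12 after rescaling). The ETS family repressor gene Etv6 went from 42.3 ± 7.02 to 5.79 ± 0.791 FPKM and Mef2c, a MADS-box factor, from 145 ± 19.1 to 17.3 ± 6.76 FPKM. All 3 also remained lower after median-ratio rescaling. Of factors named after their values were seen, Nfe2, needed for platelet release, was at 168 to 220 FPKM in controls and 24.3, 5.90 and 46.9 in knockout replicates 1 to 3. Gata1, the master factor of megakaryocytes and red cells, was at 8.40 to 16.8 FPKM in controls and 2.73, 3.65 and 9.78 in knockouts. The fall of Gata1 (-1.27, limma adjusted p = 0.008) did not pass after rescaling, when it was -0.44. Of the 12 stem cell markers described below, 8 were also lower and 1 higher as deposited, with a median of -1.48. A fall was thus not particular to these factors.

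Thrombopoietin drives megakaryocyte growth and stem cell maintenance through JAK-STAT signalling. Of 9 genes of this pathway 7 were lower, against 59.5% of all genes, 1 (Jak2) did not pass and 1 (the ligand gene Thpo) was too low to be tested. The list median was -0.86, and after rescaling it was 0.06, with 2 genes lower, Stat5a among them, against 17.1% of all genes. Stat5a went from 36.3 ± 3.66 to 9.68 ± 1.94 FPKM. Stat3 went from 80.3 ± 7.49 to 37.8 ± 5.14 FPKM, which did not pass after rescaling (-0.13, adjusted p = 0.518).

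Other platelet surface receptors moved both ways. Of 22 genes 8 were lower, 4 higher and 8 did not pass, with a median of -0.11 over the 20 tested, where 59.5% of all genes were lower and 8.91% higher. After rescaling 4 were lower and 9 higher, where 17.1% and 18.7% of all genes were. Tbxa2r, the thromboxane receptor, was at 31.8 to 54.1 FPKM in controls and 5.28, 0.74 and 1.22 in knockout replicates 1 to 3. Pear1, a platelet contact receptor, went from 45.1 ± 12.4 to 11.6 ± 4.07 FPKM. Cd36, a scavenger receptor of platelets, macrophages and fat-storing cells, rose from 2.34 ± 1.26 to 63.8 ± 35.05 FPKM, with 27.7, 97.7 and 66.0 in knockout replicates 1 to 3 (log2 fold change 4.20 ± 0.43, standard error; limma adjusted p = 3.96e-05; 5.01 after rescaling). The other higher genes were Clec1b, the podoplanin receptor CLEC-2, at 0.56 to 1.22 FPKM in controls and 4.21, 29.7 and 13.25 in knockout replicates 1 to 3, Cd226, an adhesion receptor shared with T and NK cells, and F2rl2, a thrombin receptor. These last 3 genes were named after their values were seen.

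Among 16 genes of granule cargo and granule formation 10 of the 15 tested were lower and 4 higher, and the median was -0.91; over all genes 59.5% were lower and 8.91% higher. After rescaling 5 were lower and 4 higher, against 17.1% and 18.7% of all genes. Slc35d3, needed for platelet dense granules in mice, was at 10.1 to 20.1 FPKM in controls and 0.64, 0.73 and 0.68 in knockout replicates 1 to 3 (log2 fold change -3.20 ± 0.24, standard error; limma adjusted p = 8.51e-06; -2.59 after rescaling). It reached 1 FPKM in controls only and so entered the test through them. Hps1, a subunit of the complex that builds lysosome-related organelles, went from 30.5 ± 2.80 to 9.95 ± 0.803 FPKM. Srgn, the granule proteoglycan serglycin, went from 967 ± 149 to 301 ± 47.2 FPKM. The 4 higher genes were Clu, Pdgfb, Serpine2 and Timp3, secreted proteins that stromal and vascular cells also make, and were named after their values were seen. Timp3 was at 1.61 to 2.42 FPKM in controls and 10.01, 37.3 and 9.40 in knockout replicates 1 to 3.

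Of 22 genes of platelet signalling and cytoskeleton 8 were lower and 2 higher, 7 did not pass and 5 were too low to be tested, where 59.5% of all genes were lower and 8.91% higher. Their median of -0.48 lay above that of all genes, and after rescaling 1 was lower and 9 were higher, against 17.1% and 18.7% of all genes. The 1 that stayed lower was Plcg2, the phospholipase downstream of GPVI and CLEC-2, which went from 72.2 ± 11.9 to 14.8 ± 1.65 FPKM (log2 fold change -2.20 ± 0.16, standard error; limma adjusted p = 7.47e-06; -1.28 after rescaling). Fermt3, the integrin activator kindlin-3, went from 206 ± 26.7 to 90.3 ± 16.4 FPKM and did not pass after rescaling (-0.23, adjusted p = 0.282). Myl9, a myosin light chain of platelets and smooth muscle, rose from 0.742 ± 1.10 to 20.7 ± 5.81 FPKM, and Rap1b, the small GTPase that activates integrins, was also higher. Over all 5 lists 75 of 84 genes were tested, of which 48 were lower and 10 higher as deposited, beside 59.5% and 8.91% of all genes. After median-ratio rescaling 22 were lower and 23 higher, beside 17.1% and 18.7% of all genes.

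**Figure D4:**
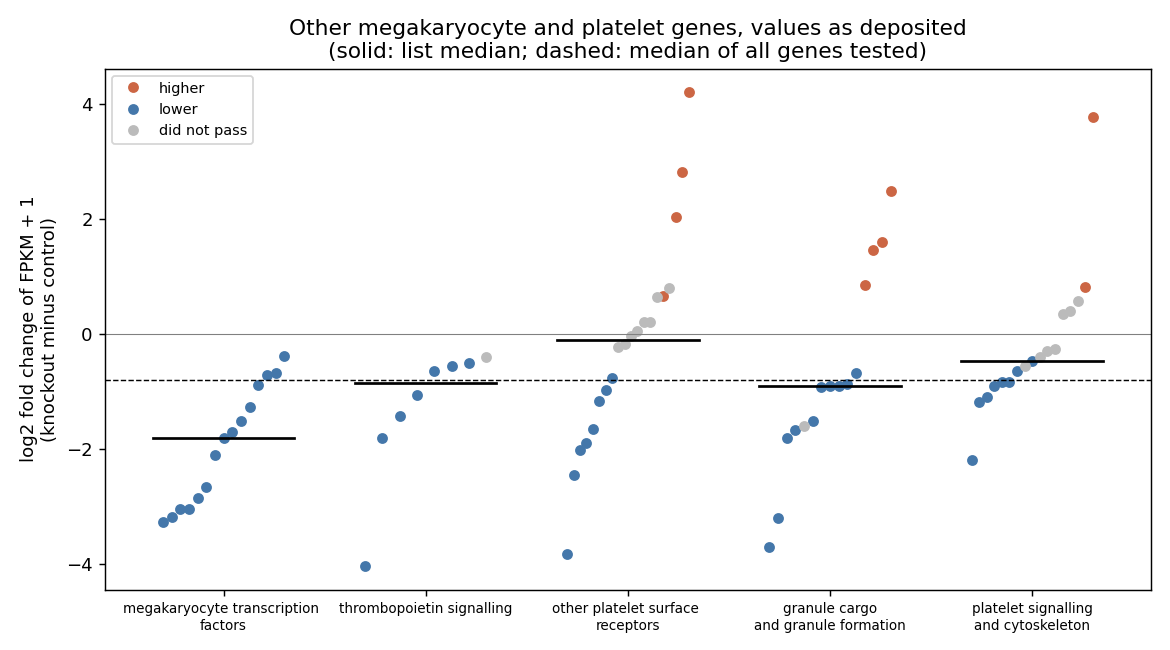
Log2 fold change of FPKM + 1 (knockout minus control, values as deposited) of the tested genes of 5 further lists, 1 point per gene, coloured by call; solid lines are list medians and the dashed line is the median of all genes tested, -0.81. The 15 transcription factor genes are below 0 as deposited (Fli1 and Rbm15 above it after median-ratio rescaling), while the receptor, granule and cytoskeleton lists hold genes on both sides, with Cd36 highest.

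Markers of other cells moved between the groups beside these genes. As deposited 8.91% of all genes were called higher and 59.5% lower, and after median-ratio rescaling 18.7% and 17.1%. Of 12 macrophage markers 11 were higher and 1 did not pass, also after rescaling. Their summed level, given beside Pf4, was above all controls in every knockout library, and knockout replicate 2 was highest and replicate 1 lowest, as for Pf4. The endothelial and adipocyte sums ranked the knockout libraries in the same way, and the T and NK, erythroid and stem cell sums did not. Such an order of 3 libraries is readily met by chance. The endothelial sums of knockout replicates 1 and 3, at 268 and 281 FPKM, both lay within the control range. Marco was listed at 0 in control replicates 1 and 4 and reached 1 FPKM in knockouts only, as did Cdh5, Kdr and Ptprb of the endothelial and Adipoq of the adipocyte markers, so that these 5 entered the test through the group where they were high, and no macrophage marker was at 0 in every control. Of 12 endothelial markers 7 were higher and 3 lower (8 and 0 after rescaling), and their sum was 239 to 320 FPKM in controls and 268, 699 and 281 in knockouts; Ptprb was listed at 0 in control replicate 1. Of 11 T and NK cell markers 10 were higher (11 after rescaling), with sums of 318 to 790 and 1199 to 1806 FPKM. Of 7 adipocyte markers 3 were higher, also after rescaling, and 4 too low to be tested. Their sums were 5.37 to 13.1 FPKM in controls and 248, 834 and 422 in knockout replicates 1 to 3. Of 12 erythroid markers 3 were higher and 2 lower (4 and 1 after rescaling), with sums of 153 to 276 and 138 to 438 FPKM. Of 12 stem cell markers 8 were lower and 1 higher (6 and 3 after rescaling), with sums of 971 to 1200 and 352 to 442 FPKM. Of the genes behind the sorting markers, Kit was at 124 to 174 FPKM in controls and 9.12, 3.46 and 23.4 in knockout replicates 1 to 3. Ly6a (Sca-1) was at 319 to 355 FPKM in controls and 279 to 390 in knockouts, and Slamf1 (CD150) at 3.61 to 5.75 and 1.2 to 4.16. Cd48, also a sorting marker, is not given here. Cd34, a listed stem cell marker that is not among the sorting markers, was at 353 to 411 FPKM in controls. In knockout replicates 1 to 3 Cd34 was at 5.91, 0.61 and 12.1. Kit, Ly6a, Slamf1 and Cd34 were named after their values were seen. The part of any of these cell types in the level of Pf4 or of the other members was not tested.

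**Figure D5:**
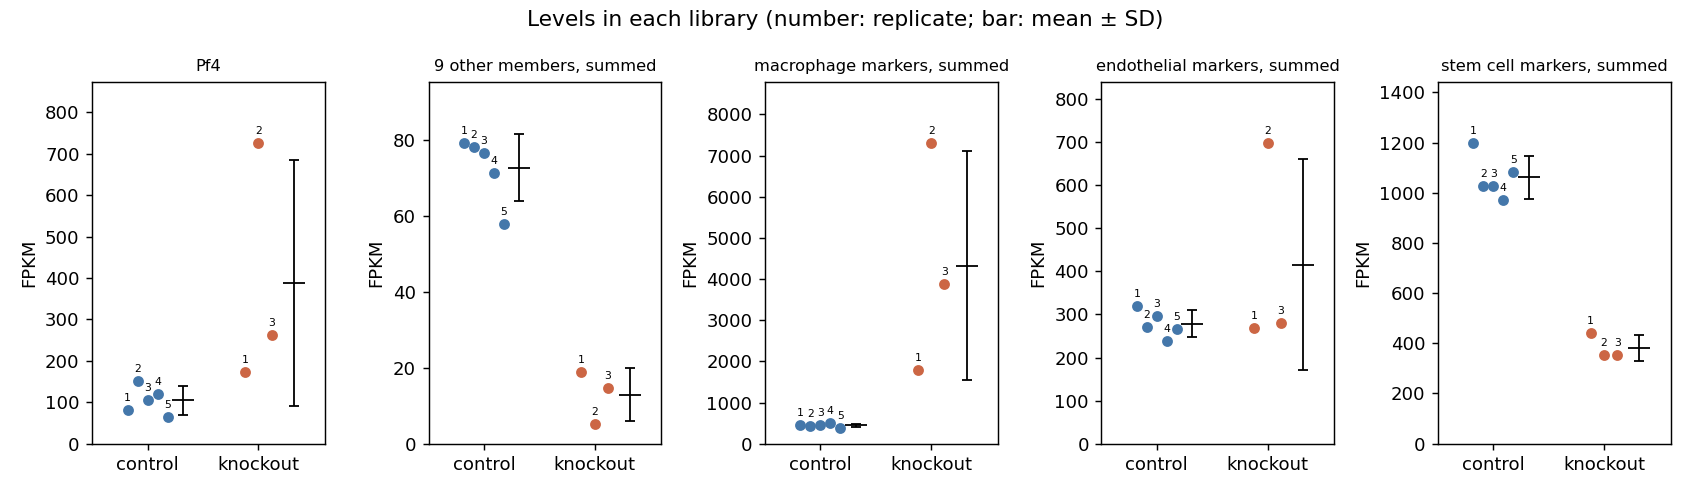
FPKM of Pf4, and summed FPKM of the 9 other members and of the macrophage, endothelial and stem cell marker lists, in each control (blue) and knockout (orange) library; numbers are replicates and bars the mean ± SD. Knockout replicate 2 is the highest knockout library for Pf4 (727), macrophage markers (7316) and endothelial markers (699), and the lowest for the sum of the 9 other members (5.23).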

How the data were processed

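The authors deposited FPKM values for each Ensembl gene in each library, and no count table was used here. Tools listed in the submitters' processing notes are Cufflinks 2.1.1, Bowtie 0.12.9, DESeq2 and HTSeq, with the build mm10, and none has a stated role. Annotation, filters and strandedness are not given in the sources used here. RNA was amplified by the Geo-seq method before library construction, per the labels' protocols, so fragments are not independent molecules.

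From these values, limma 3.58.1 (R 4.3.3) was fitted to log2(FPKM + 1), with a trend and robust moderation, for the 15121 genes at 1 FPKM or more in at least 3 libraries, with Benjamini-Hochberg adjustment over all of them and a threshold of 0.05. Fold changes on this scale understate the change of low genes. A gene at 1 FPKM in fewer than 3 libraries of a group passed the filter wholly or in part through the other group. Srf and Tbxa2r passed it through the controls in this way, and Clec1b and Myl9 through the knockouts. Single values were compared by exact two-sided permutation over the 56 ways to choose 3 of 8 libraries. Depth was estimated from steps of low values in genes with 1 transcript of 600 to 2500 nt. For each library a depth was searched for at which most of these values were whole. At the depths chosen, 83.3% to 92.7% of them fell within 0.15 of a whole fragment, a high share that the search itself required. The 30% that chance gives at a depth fixed beforehand is thus no yardstick. The depths, and the fragment numbers and limits at 0 taken from them, were not tested. The non-mitochondrial total left out 37 mitochondrial genes and 15 nuclear genes that matched them in BLAST+ 2.17.0 at 90% identity over 50% of their length.

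The 10 members and the gene lists were chosen with earlier results of these data known. Named genes were all members, the 3 genes of each of 5 further lists with the smallest p, the 5 CXC chemokine genes and Nup214; every other gene, such as Kit, Timp3 or Rap1b, was named after its values were seen. Some genes that this rule names are not reported here. Alternatives were 3 rescalings, a pseudocount of 0.1, no filter, a filter of 5 libraries, leaving out each library, and the replicate number as a block.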

Additional observations from a re-analysis of the deposited data

Results flagged for a closer look

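In 34 sets of control values searched, 6 held a library far from the other 4, by a gap of more than 0.71 of the range of the 5. For independent, normally distributed values chance gives about 1 set in 20. FPKM near 0 need not follow that rate and the sets share the same 5 libraries, so the 6 cannot be read as an excess. Control replicate 1 stood high for Ppbp (4.21 FPKM), Pear1 (66.58 FPKM) and Myl9 (2.71 FPKM). Control replicate 5 stood low for Gp9 (16.46 FPKM). Control replicate 2 stood high for Cxcl5 (0.15 FPKM, with 0 in the others) and control replicate 3 for Cxcl15 (0.3 FPKM).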

How the results depend on the processing

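Pf4 was called higher, and Gp9, Itga2b and Treml1 lower, under every alternative run. The count of members called lower, 7 as deposited, was 3 with median-ratio rescaling, 4 with quantile normalization and 3 with the non-mitochondrial total, and 4 to 8 when 1 library was left out; the lowest count was without knockout replicate 2. For the further lists, 48 lower and 10 higher genes became 22 and 23, 22 and 22, and 23 and 19 under the 3 rescalings in that order. The median of the members tested, -1.12, was -2.57 with a pseudocount of 0.1. Without a filter, Gp1bb and Vwf did not pass (adjusted p = 0.0502 and 0.0634). With a pseudocount of 0.1 the ratio differences were 1.45 for Itgb3 over Itga2b (adjusted p = 0.0714) and -2.07 for Gp9 over Gp1bb (0.429). When 1 library was left out they ranged from 1.36 to 1.83 and from -2.99 to -1.32, and neither passed (adjusted exact permutation p 0.0571 to 0.0952). The lowest p possible before adjustment is then 0.0286 without a control and 0.0476 without a knockout. The loss of the call therefore says little about dependence on single libraries.

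The replicate numbers did not pair the libraries: deviations of same-numbered libraries from their group means had correlations of -0.04, 0.03 and -0.04. With the replicate block 6 members were lower and 1 higher; Ppbp passed (adjusted p = 0.0259), and Itgb3 and Gp1bb did not (0.0981 and 0.077). Depth limits the members listed at 0 or near it in knockouts.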

Other observations

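Among platelet genes too low for the test, Alox12, the platelet lipoxygenase gene, was at 0.06 to 0.38 FPKM in controls and 0.07, 3.64 and 2.04 in knockout replicates 1 to 3. Gnaz, a G protein subunit of platelets, was at 0.38 to 1.49 FPKM in controls and 0, 0.31 and 0.35 in knockouts. Both were picked after their values were seen. Two-sided exact permutation tests gave p = 0.0893 for Alox12 and p = 0.107 for Gnaz.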
